A study of Homo sapiens with 4 samples.

Results

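The mevalonate arm of cholesterol synthesis is the run of enzymes that turns acetyl-CoA into squalene, taken here together with GGPS1, which makes geranylgeranyl diphosphate. Its members here were ACAT2, HMGCS1, MVK, PMVK, MVD, IDI1, FDPS, GGPS1 and FDFT1, taken by gene symbol from a list of 9 enzymes and each read from its brightest probe set. A named probe set was found for 8 of the 9, among 18603 probe sets in all. FDFT1 was not analysed here. Each of the 8 genes had 1 probe set, so no choice between probe sets was needed, and no filter on low signal was applied.

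The samples were cultures of MDA-MB-231, an established human breast cancer line with mesenchymal traits, and each of the 4 arrays holds the RNA of 1 culture. Of these, 2 had received a hairpin (shDROSHA) that targets DROSHA, the nuclear ribonuclease that releases microRNA precursors from their primary transcripts, and the other 2 were controls that the labels call shNC. The design text instead calls the control mock-transfected, and which of these it was is not settled here. All cells were grown in L-15 medium with 10% fetal bovine serum, which itself supplies lipoprotein cholesterol. The sources used here do not give the time after transfection, the number of hairpins or the state of selection.

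In this pathway ACAT2 joins acetyl-CoA units and HMGCS1 makes HMG-CoA, the precursor of mevalonate. MVK, PMVK and MVD phosphorylate and decarboxylate mevalonate to isopentenyl diphosphate, which IDI1 isomerises. FDPS and GGPS1 then build farnesyl and geranylgeranyl diphosphate, the lipids that anchor prenylated GTPases and feed dolichol and ubiquinone synthesis, and FDFT1 commits farnesyl units to sterols. Many genes of the pathway are textbook targets of SREBP2, a membrane-bound transcription factor released when sterols in the endoplasmic reticulum fall, which acts beside the CCAAT-binding factor NF-Y and Sp1.

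The promoters of these genes were set side by side because the enzymes are textbook partners in transcription, yet their mRNAs differed in how far they moved. The RefSeq promoter table (GRCh38.p14) held 12 annotated starts for 7 of the measured members. ACAT2 had no entry. The lines below give the 250 bases before 1 start of each of 5 genes, written 5′ to 3′ along the gene. Capitals mark CCAAT or its reverse complement ATTGG, the box that NF-Y binds. HMGCS1 and IDI1 rose in shDROSHA, whereas FDPS, MVD and MVK did not pass the test.
HMGCS1, chr5:43313413-43313662, minus strand: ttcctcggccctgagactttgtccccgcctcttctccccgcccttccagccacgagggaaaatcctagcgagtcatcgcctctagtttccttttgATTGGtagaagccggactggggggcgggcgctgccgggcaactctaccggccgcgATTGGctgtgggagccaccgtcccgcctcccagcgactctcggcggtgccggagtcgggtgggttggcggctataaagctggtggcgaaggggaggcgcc
IDI1, chr10:1049120-1049369, minus strand: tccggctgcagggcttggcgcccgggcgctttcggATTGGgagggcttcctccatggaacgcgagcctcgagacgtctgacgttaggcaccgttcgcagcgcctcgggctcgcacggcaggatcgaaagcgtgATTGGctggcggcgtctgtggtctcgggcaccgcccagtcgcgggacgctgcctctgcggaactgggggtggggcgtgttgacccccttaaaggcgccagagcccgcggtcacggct
FDPS, chr1:155308616-155308865, plus strand: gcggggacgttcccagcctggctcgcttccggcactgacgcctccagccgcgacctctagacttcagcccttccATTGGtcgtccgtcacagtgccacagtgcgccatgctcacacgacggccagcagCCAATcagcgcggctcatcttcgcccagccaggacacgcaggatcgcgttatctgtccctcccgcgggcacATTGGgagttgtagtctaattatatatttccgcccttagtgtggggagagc
MVD, chr16:88663092-88663341, minus strand: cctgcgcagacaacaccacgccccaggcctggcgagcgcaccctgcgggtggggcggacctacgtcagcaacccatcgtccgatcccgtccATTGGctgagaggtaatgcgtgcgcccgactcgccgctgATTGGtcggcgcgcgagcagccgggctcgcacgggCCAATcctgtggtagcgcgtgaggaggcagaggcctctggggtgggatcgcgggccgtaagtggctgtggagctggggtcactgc
MVK, chr12:109573544-109573793, plus strand: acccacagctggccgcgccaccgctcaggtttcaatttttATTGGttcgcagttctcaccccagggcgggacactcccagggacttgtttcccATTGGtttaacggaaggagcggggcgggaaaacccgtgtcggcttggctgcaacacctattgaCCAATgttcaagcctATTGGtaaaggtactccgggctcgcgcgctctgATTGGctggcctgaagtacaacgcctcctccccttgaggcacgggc
The letters CCAAT, searched on both strands, were in the 250 upstream bases of 6 of the 7 genes and at 7 of their 12 starts. Of all 35116 starts in the table, 32% held at least 1 such match in a window of that length. At least 2 matches stood before 6 of the 12 starts, in 5 genes, against 9.53% of all starts. MVK had 5 matches, MVD and FDPS 3 each, the HMGCS1 start shown 2 and the IDI1 start shown 2. The IDI1 start nearest to the one shown had 3, of which 2 share letters, and the remaining IDI1 start had 0. At the other HMGCS1 start there were 0. The 3 GGPS1 starts had 0, 1 and 0, and PMVK had 0. Counts of these letters were thus high and low among the 5 genes that did not pass. They also differed between the starts of HMGCS1 and of IDI1, which rose. The Sp1 box GGGCGG, also on both strands, was before 11 of the 12 starts, against 42.6% of all. These 12 windows were 58.4% to 74% G and C, the only letters of that box. The G and C content of all starts was not computed, so this comparison does not allow for it. No match was found to the SREBP-type sequence TCACNCCAC on either strand, against 0.883% of all starts. Matches are so rare that finding none before 12 starts was likely in any case, so nothing is drawn from it. Sites that differ from these letters were not searched. The 2 HMGCS1 windows overlap, as do 2 of the 3 IDI1 windows, so these are not independent. The remaining IDI1 window, chr10:1056705-1056954, lies apart from them, and the 3 GGPS1 windows do not overlap. Each match describes letters in its window only.

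DROSHA mRNA itself read 8.71 and 8.74 on the shDROSHA arrays and 9.66 and 9.76 on the shNC arrays (log2 signal, the scale of all levels given here). The groups did not overlap, and the log2 fold change was -0.99 (SE 0.073, adjusted p = 3.89e-06 in limma with a prior variance that follows signal, called the trended fit). Genes are said to have risen or fallen where the adjusted p of that fit was under 0.05, and each SE and 95% interval comes from it. The fit with 1 constant prior variance gave DROSHA an adjusted p of 0.0843. The line was checked against its markers. The probe sets of VIM, CD44, AXL, MSN and CAV1 lay between percentiles 84.8 and 98.9 of signal. Those of ESR1, EPCAM and ERBB3, low in this line, lay between percentiles 13.6 and 42.2, and those of PTPRC, PECAM1, ALB and COL1A1, which mark other cell types, between 3.42 and 48.6. None of the latter 7 passed the trended fit, with a largest difference of 0.34 for PECAM1. AXL was higher by 0.33 in shDROSHA, while MSN and CAV1 were lower (log2 fold changes -0.22 and -0.23).

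Of the 8 measured enzymes of the arm, 3 rose in shDROSHA, 0 fell and the other 5 missed the threshold of the trended fit. HMGCS1 was 2.10-fold higher, IDI1 1.78-fold and ACAT2 1.33-fold. Over all 18603 probe sets, 6.41% were called by the same rule, 3.12% as higher and 3.28% as lower. The share called higher depended on signal. It was 9.67% in the brightest of 5 equal bins of probe sets, which holds ACAT2, IDI1 and FDPS, and 3.66% in the next, which holds HMGCS1. In the third bin, which holds MVK, MVD and GGPS1, it was 1.34%, and in the fourth, which holds PMVK, 0.591%. All 8 group means were higher in shDROSHA, with a median log2 fold change of 0.26, against a median of 0.00086 over all probe sets, of which 50.2% were higher. In 7 of the 8 both shDROSHA arrays lay above both shNC arrays, a pattern met by 23.4% of all probe sets, and in 0 both lay below, against 24.4%. These counts describe the enzymes and are not a test of the pathway. RNA was taken from whole cultures, in which a change per cell and a change in the mix of cells cannot be told apart.

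**Figure D1:**
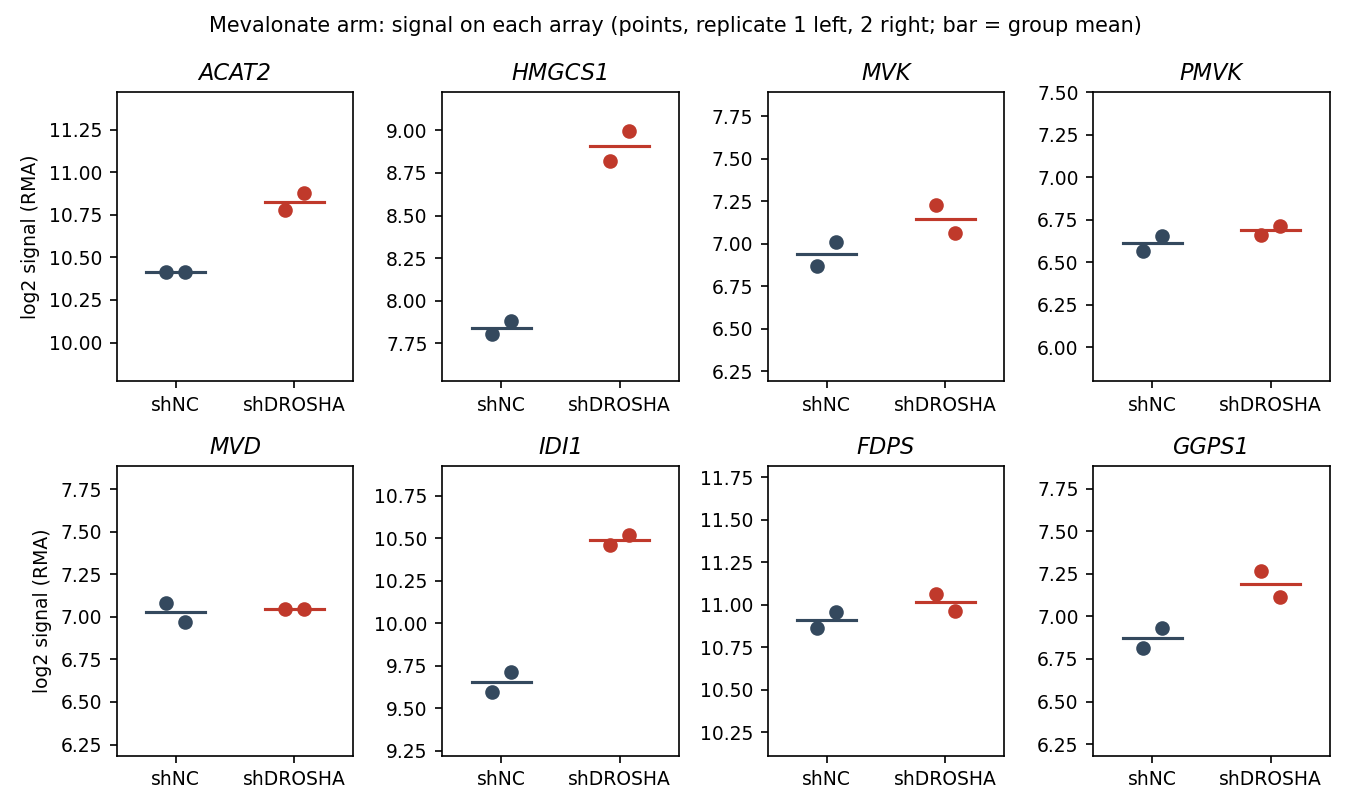
Log2 RMA signal of the 8 measured enzymes on each array, with shNC in dark blue and shDROSHA in red; points are single arrays and bars group means, and every panel spans the same height on its own axis. HMGCS1, IDI1 and ACAT2 show wide gaps between the groups, while the points of MVD overlap and those of FDPS and PMVK nearly meet.

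The largest difference was at HMGCS1, the cytosolic synthase that condenses acetoacetyl-CoA with acetyl-CoA to HMG-CoA. It read 8.822 and 8.998 on the shDROSHA arrays against 7.80 and 7.88 on the shNC arrays. The gap between the nearest arrays of the groups was 0.94, several times the SDs within them (0.125 and 0.056, n = 2 each). Its log2 fold change of 1.07 (SE 0.094, 95% interval 0.87 to 1.27, adjusted p = 1.78e-05 in limma's trended fit) was the 12th highest of all probe sets. In the constant fit the adjusted p was 0.0891. Leaving out any 1 array gave 0.98 to 1.16.

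ACAT2, the cytosolic thiolase one step upstream, rose less. Its signals were 10.78 and 10.88 on the shDROSHA arrays and 10.41 and 10.42 on the shNC arrays. The shNC arrays were almost equal (SD 0.0025), and both shDROSHA arrays stood 0.36 or more above them. The log2 fold change was 0.41 (SE 0.054, 95% interval 0.30 to 0.53, adjusted p = 0.000469 in the trended fit and 0.188 in the constant fit). ACAT1, the mitochondrial thiolase used mainly in ketone body and isoleucine breakdown, did not move with it: it read 9.94 and 9.91 against 10.01 and 9.96, a log2 fold change of -0.061 (95% interval -0.19 to 0.068, adjusted p = 0.659).

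The kinases and the decarboxylase in the middle of the arm did not pass the test. MVK, mevalonate kinase, read 7.23 and 7.06 on the shDROSHA arrays and 6.87 and 7.01 on the shNC arrays. The nearest arrays were only 0.049 apart, less than the SD within either group (0.116 and 0.102), and the log2 fold change was 0.20 (95% interval -0.077 to 0.48, adjusted p = 0.447). Leaving out single arrays moved it from 0.12 to 0.29. PMVK, phosphomevalonate kinase, read 6.66 and 6.72 against 6.57 and 6.65, with a gap of 0.010 and a log2 fold change of 0.078 (95% interval -0.22 to 0.37, adjusted p = 0.835; 0.036 to 0.12 with single arrays left out). MVD, the diphosphate decarboxylase, was the member whose groups overlapped. Both shDROSHA arrays were at 7.04, between the shNC arrays at 7.08 and 6.97. Its log2 fold change of 0.018 (95% interval -0.25 to 0.29, adjusted p = 0.967) turned to -0.040 without shNC replicate 2. The intervals of MVK, PMVK and MVD all end below the lower bound of HMGCS1 and of IDI1, but each reaches 0.29 or more, so changes up to that size were not resolved at these signals.

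IDI1, the isomerase that turns isopentenyl into dimethylallyl diphosphate, was the other strongly higher member. It read 10.46 and 10.52 on the shDROSHA arrays and 9.60 and 9.71 on the shNC arrays. The groups were separated by 0.74, with SDs of 0.043 and 0.083. Its log2 fold change of 0.83 (SE 0.063, 95% interval 0.70 to 0.97) had the lowest adjusted p of the 8, 4.24e-06 in the trended fit, against 0.112 in the constant fit. Without any 1 array it was 0.77 to 0.89. IDI2, the neighbouring isomerase gene known mainly from skeletal muscle, read 5.49 and 5.58 against 5.53 and 5.31. Its groups overlapped and its log2 fold change was 0.12 (95% interval -0.26 to 0.49, adjusted p = 0.789). The IDI2 probe set was in the dimmest of the 5 bins, at the 18.5th percentile of signal, where a true change is compressed.

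The prenyl diphosphate synthases at the branch point of the arm were higher by less. FDPS, which makes farnesyl diphosphate and is the target of nitrogen-containing bisphosphonates, read 11.07 and 10.96 on the shDROSHA arrays and 10.86 and 10.96 on the shNC arrays. The nearest arrays differed by 0.0065, so the groups met without overlapping. The log2 fold change of FDPS was 0.10 (SE 0.054, 95% interval -0.012 to 0.22, adjusted p = 0.320), and 0.054 to 0.15 with single arrays left out. Its SE was close to that of ACAT2 and below that of IDI1, and its upper bound lay below the lower bound of all 3 members that rose. GGPS1, which adds the next isoprene unit to give geranylgeranyl diphosphate, read 7.27 and 7.11 against 6.82 and 6.93. Both shDROSHA arrays were higher by at least 0.18, and the log2 fold change was 0.31 (SE 0.130, 95% interval 0.036 to 0.59), yet the adjusted p was 0.190. Leaving out any 1 array gave GGPS1 differences of 0.24 to 0.39, none of them past the test. Its unadjusted p was under 0.05 in both fits, as was that of HMGCS1, IDI1 and ACAT2, against 19.3% of all probe sets in the trended fit and 14.9% in the constant fit.

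**Figure D2:**
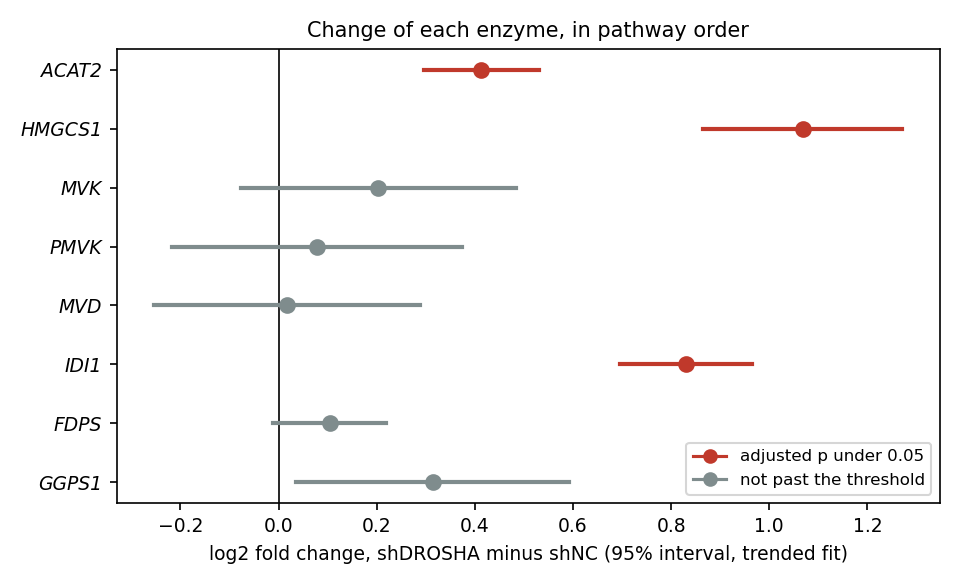
Log2 fold change (shDROSHA minus shNC) of the 8 enzymes in pathway order, with 95% intervals of the trended fit; red marks adjusted p under 0.05. HMGCS1 (1.07) and IDI1 (0.83) stand furthest from 0, and the intervals of MVK, PMVK, MVD and FDPS include 0.

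The choice of error model decided whether any member passed. The constant fit called 0 of the 8 in limma, and 4 at an unadjusted p under 0.05, where 6.8% of all probe sets were higher. It called 0.00538% of all probe sets, 1 in number. Spread between replicates was larger at low signal (residual SD 0.213 in the dimmest bin and 0.0672 in the brightest). The median SE in the brightest bin was 0.0625 in the trended fit and 0.0856 in the constant fit. In the next bin, which holds HMGCS1, these were 0.0934 and 0.0944, and in the dimmest 0.194 and 0.134. The trended fit had 13.9 degrees of freedom in all, whereas the constant prior added 3 to the 2 residual ones. For any single enzyme, the smallest two-sided p that exact permutation of the 4 arrays allows is 0.333.

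**Figure D3:**
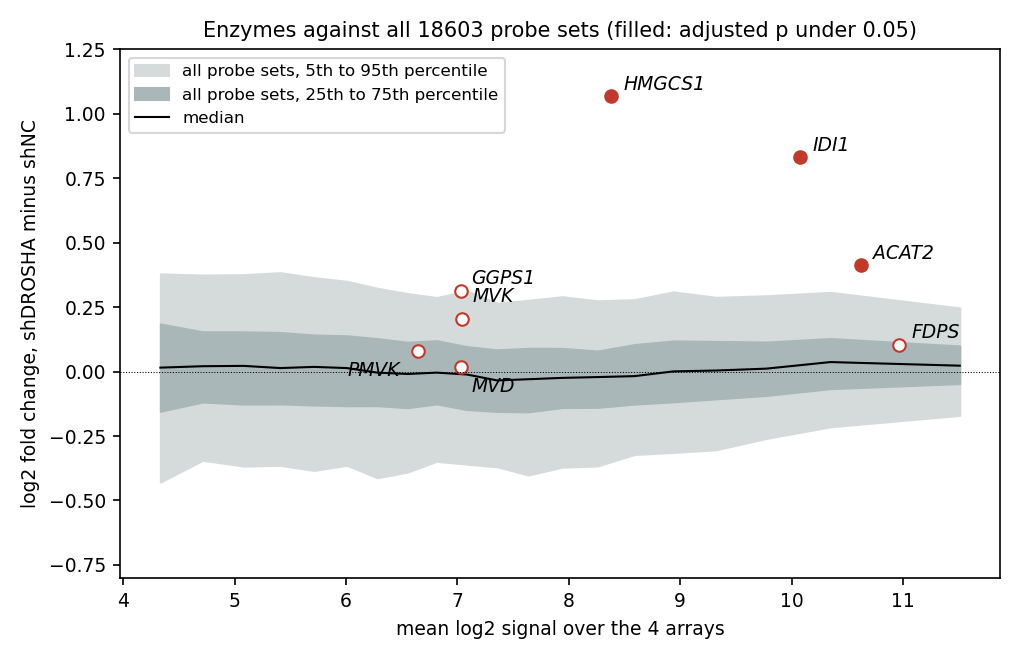
Log2 fold change of the 8 enzymes (circles, filled where adjusted p was under 0.05) against mean log2 signal, with bands for the middle 50% and 90% of all 18603 probe sets in 20 bins of signal. HMGCS1, IDI1 and ACAT2 lie above the wider band and GGPS1 at its upper edge; FDPS lies near the upper edge of the inner band and MVD on the median line.

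By the root mean square distance of the 4 array values, each gene centred on its own mean, the named genes most like HMGCS1 were ALG5 (0.115), PRLR (0.117) and SEMA3E (0.124). IDI1 was at 0.126, with 5 named probe sets nearer, counting HMGCS1 itself. ACAT2 was at 0.330 with 227 nearer, and MVD was the farthest member at 0.534 with 6995 nearer. This likeness rests on 4 arrays and largely restates the log2 fold change. ALG5, PRLR and SEMA3E had the 14th, 13th and 15th highest log2 fold change, next to HMGCS1 at the 12th.

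The enzymes after squalene, which close and trim the sterol rings, also held strongly higher members. Of 11 measured, 4 rose, 0 fell and 7 did not pass, and the median log2 fold change was 0.24, where 3.12% of all probe sets rose and 9.67% of the brightest bin. MSMO1, a methylsterol oxidase, read 11.54 on both shDROSHA arrays against 10.71 and 10.70 on the shNC arrays, a rise of 0.84 (SE 0.046, adjusted p = 1.90e-07 in the trended fit). DHCR7, the last reductase of cholesterol synthesis, rose by 0.71 (adjusted p = 0.000425). SQLE, squalene epoxidase, rose by 0.69 (adjusted p = 0.0201), a call lost when shDROSHA replicate 2, shNC replicate 1 or shNC replicate 2 was left out (adjusted p = 0.0680 to 0.0985). CYP51A1, the sterol 14-demethylase, rose by 0.53 (adjusted p = 0.000683). The group means of 3 of the 11 were lower, none past the test, with LSS, named after its value was seen, the lowest at -0.066. The constant fit called 0 of these 11. At an unadjusted p under 0.05 there were 7 in the trended fit and 6 in the constant fit, against 19.3% and 14.9% of all probe sets.

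Regulators of the arm gave a mixed picture. INSIG1, a sterol-sensing membrane protein that holds SREBP back, and whose gene is itself an SREBP target, read 8.09 and 8.28 on the shDROSHA arrays and 7.55 and 7.22 on the shNC arrays. It rose by 0.80 (SE 0.125, adjusted p = 0.00165 in the trended fit and 0.172 in the constant fit). The other 7 measured genes of its list did not pass, and the median of all 8 was -0.065. That list holds the INSIG proteins and factors of sterol-regulated protein degradation. Of all probe sets 3.12% rose, and 1.34% of the third bin, which holds INSIG1. In the list 2 genes had an unadjusted p under 0.05 in the trended fit and 1 in the constant fit, against 19.3% and 14.9% of all probe sets. Of 5 measured genes of the SREBP pathway, 0 rose and 0 fell in limma, with 3 at an unadjusted p under 0.05 in the trended fit and 2 in the constant fit, against 19.3% and 14.9% of all probe sets. Of these, SCAP, the sterol-sensing escort of SREBP, and MBTPS1, the protease that cuts it first, were lower (log2 fold changes -0.28 and -0.22). STARD4, a sterol carrier, was higher by 0.19. These 3 were named after their values were seen, and their adjusted p in the trended fit was 0.173, 0.132 and 0.250. In 2 of the 5 genes, SCAP and MBTPS1, both shDROSHA arrays lay below both shNC arrays, against 24.4% of all probe sets. In 2 others, STARD4 among them, both lay above, against 23.4%. SREBF2, which encodes SREBP2, read 8.21 and 7.95 against 7.74 and 7.96. Its groups overlapped, and the log2 fold change was 0.23 (95% interval -0.021 to 0.48, adjusted p = 0.309). When single arrays were left out it ranged from 0.097 (shDROSHA replicate 1 left out) to 0.36 (shDROSHA replicate 2 left out).

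Genes that supply the arm or use its products mostly did not pass the test. Of 5 measured genes of acetyl-CoA supply and the mitochondrial or tissue-specific counterparts, 0 were called, with 0 at an unadjusted p under 0.05 in either fit, and the median was -0.019. Among 7 protein prenylation enzymes only ZMPSTE24, a protease that trims farnesylated prelamin A, rose (0.25, adjusted p = 0.00985), with a list median of -0.017. Among 11 ubiquinone enzymes PDSS1, a subunit of the synthase that builds the ubiquinone side chain, rose by 0.30 (adjusted p = 0.0184), with a median of -0.064. Each is 1 call in its list, and both probe sets are in the brightest bin, of which 9.67% was called higher. Both calls were lost without shNC replicate 1, where the adjusted p was 0.0888 for ZMPSTE24 and 0.222 for PDSS1. Of 4 dolichol enzymes 0 were called (1 at an unadjusted p under 0.05 in the trended fit, 0 in the constant fit), with a median of 0.12. Of 9 prenylated GTPases 0 were called (3 and 0 in the same order), with a median of 0.058. The share of all probe sets at an unadjusted p under 0.05 was 19.3% in the trended fit and 14.9% in the constant fit.

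**Figure D4:**
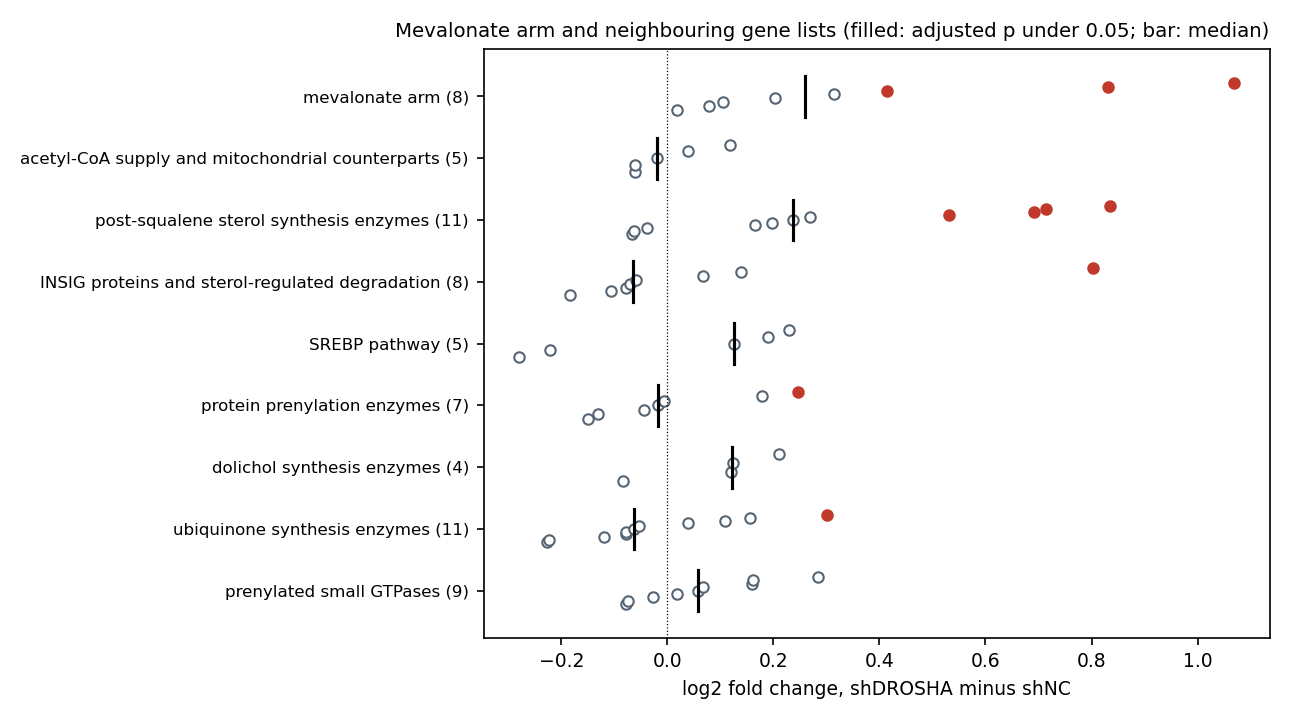
Log2 fold change of every measured gene of the mevalonate arm and of 8 neighbouring lists, with the number measured in brackets; filled points had adjusted p under 0.05 in the trended fit and bars are medians. The mevalonate arm (median 0.26) and the post-squalene enzymes (0.24) hold 7 of the 10 filled points, and INSIG1 stands alone in its list.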

How the data were processed

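The deposited values are log2 signals of Affymetrix whole-transcript arrays, 1 per probe set and array, which the authors made with RMA per the submitters' processing notes. The sources used here name no software version, filter or genome build. Because RMA makes the arrays' distributions nearly equal, a general rise or fall of mRNA is invisible here. Dim probe sets understate fold changes.

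Platform annotation named 15886 of the 18603 probe sets, and RefSeq symbols were assigned by Entrez identifier. Groups and biological replicate numbers came from the sample titles, and nothing else says how separate the cultures were. The groups were compared with lmFit and eBayes of limma 3.58.1 (R 4.3.3) over all probe sets with Benjamini-Hochberg adjustment, threshold 0.05. The trended prior was the main fit and the constant prior its alternative. Intervals use 13.9 degrees of freedom. The number of arrays limits the precision.

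The members, lists, fits and alternatives were chosen with earlier results of these data known. Named genes were all members, DROSHA, list members past the threshold, ACAT1, IDI2, INSIG1, SREBF2 and the 3 patterns nearest HMGCS1. Listed genes without a named probe set were not analysed here. On simulated data of this comparison (18603 probe sets), the trended fit recovered 58% of 100 changes of 0.5 and 95% of 100 of 1, and the constant fit 0% of either. The simulated spread depended on signal alone, which is what the trended prior assumes. The simulation therefore favours that fit by construction and cannot choose between the 2 fits.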

Additional observations from a re-analysis of the deposited data

How the results depend on the processing

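The 3 calls in the mevalonate arm (ACAT2, HMGCS1, IDI1) were kept with a robust prior, both filters on dim probe sets and the replicate block. Further centring or quantile normalization of the arrays kept them too, as did a threshold of 0.10 and both rules for probe sets. The looser threshold could not remove a call. The rules for probe sets left the member values as they were, since each member has 1 probe set. Leaving out any 1 array gave log2 fold changes of 0.36 to 0.46 for ACAT2, 0.98 to 1.16 for HMGCS1 and 0.77 to 0.89 for IDI1. Those fits leave 1 array in a group, so a call kept in them is not a check. All 3 calls were lost with the constant prior (0 members), and with that prior and the replicate block together (0 members). Of these 2 settings only the combination was added after seeing the data. Among the settings that keep 2 arrays in each group, no member gained a call. The filter at the median signal removed MVK, PMVK, MVD and GGPS1, so these could not gain a call there. MVD ranged from -0.0404 (without shNC replicate 2) to 0.0758 when single arrays were left out.

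With the constant prior, with or without the block, the counts were also 0 for the post-squalene, INSIG, prenylation and ubiquinone lists, and 1 and 0 for all probe sets, against 1192. DROSHA kept -0.99 in both, at adjusted p 0.0843 and 0.312 (limma). The count of all probe sets was 1824 at adjusted p 0.10 and 535 to 1949 without 1 array: leaving out shNC replicate 1 gave 535, shNC replicate 2 748 and shDROSHA replicate 1 1949. The prenylation list had 2 calls after quantile normalization and 0 to 1 without 1 array, the ubiquinone list 0 to 1, and the prenylated GTPases 1 with the replicate block, 1 at 0.10 and 0 to 1 without 1 array. The causes were not tested. The looser threshold acts by construction.

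Same-numbered arrays did not deviate together (correlation -0.0218 over all probe sets), so the replicate numbers were not taken as pairs. The replicate block gave 1391 calls in all and the same 3 members. After median centring of the arrays, 62.5% of all calls were higher, against 48.7% as deposited, and the median of all probe sets was 0.0339. The 8 members kept their direction under both further normalizations.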
